A study of Mus musculus with 6 samples.

Results

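Chrna4 and Col20a1 are neighbours on mouse chromosome 2 that lie on opposite strands with their 3′ ends facing each other, and their rows were read by symbol in the 6 deposited count tables of a study of the intervertebral disc (IVD). They are 2 of the 43472 gene symbols counted. The pair was chosen because Chrna4 counts were higher in mutant IVDs while its neighbour is a collagen gene, so the comparison between genotypes that chose them is described here with no test. The libraries came from mice of strain C57B6/J at postnatal day 20 (P20), 3 from Col2Cre;Adgrg6 f/f mutants and 3 from Cre (-) littermate controls. Each library pooled the thoracic and lumbar discs (T8-L5) of 2 to 3 mice. In the mutants, Cre driven by the promoter of the collagen gene Col2 removes floxed Adgrg6, which encodes an adhesion G protein-coupled receptor (formerly Gpr126). The paper reports recombination by this Cre throughout the IVD and also in periosteum and trabecular bone of the vertebrae. Controls are called wild type in the genotype labels and Col2Cre controls in the sample titles, and their floxed alleles are not given. With Cre (-) controls, as the paper describes them, presence of Cre and loss of Adgrg6 cannot be told apart in this design. The labels do not settle whether the controls carried Cre. Each pool was taken as 1 sample, with n = 3 per genotype.

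Chrna4 encodes the alpha4 subunit of nicotinic acetylcholine receptors, the pentameric channels that open when acetylcholine binds. In the brain it assembles mainly with the beta2 subunit encoded by Chrnb2, and this receptor is known for its high affinity for nicotine. Col20a1 encodes collagen XX, one of the fibril-associated collagens with interrupted triple helices (FACIT), which sit on the surface of fibrils built by other collagens and do not form fibrils themselves. Collagen IX is the FACIT of cartilage, where it coats collagen II fibrils.

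On GRCm38, GENCODE M21 places Col20a1 (ENSMUSG00000016356.18) at chr2:180986535-181018363 on the plus strand and Chrna4 (ENSMUSG00000027577.14) at chr2:181018380-181043546 on the minus strand. By this annotation 16 bases separate the 2 genes and no base belongs to both. RefSeq ends the genes earlier, at chr2:180983323-181017545 for Col20a1 and chr2:181022311-181043579 for Chrna4, which leaves 4765 bases between them. Only transcript Chrna4-202 runs to the GENCODE gene end at 181018380, and the short Chrna4-205 stops just short of it, at 181018381. Chrna4-201 stops where the RefSeq gene does, 3947 bases before the end of Col20a1-205. The ends are shown because reads near them are where the 2 genes could share signal. The last 30 bases of 3 transcripts follow, 5′ to 3′ on the strand of each gene, with a polyadenylation hexamer (AATAAA or ATTAAA) in capitals where one was found.
Chrna4-201: gAATAAAccgagtcgtggtgtcttccccca
Chrna4-202: ttgtaagctttaaaaattaatagaccaaag
Col20a1-205: aagacaaatgaacagcctgtatcagatgaa
The hexamer of Chrna4-201 began 29 bases before its end. No hexamer was found in the last 30 bases of the other 4 Chrna4 transcripts or of the 5 Col20a1 transcripts. The counts are summed over all transcripts of a gene, so which of these ends was used in the IVD was not analysed here.

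The starts of the genes lie at the far sides of the pair, and the promoter windows taken for them have unlike base composition. For each gene, the 250 bases before 1 transcript start were taken from RefSeq promoter entries on GRCm38.p6, which both genes had, and are printed with CpG dinucleotides in capitals. The Chrna4 sequence is chr2:181039178-181039427 on the minus strand and the Col20a1 sequence chr2:180986285-180986534 on the plus strand. The starts they precede lie 4402 and 3212 bases inside the RefSeq gene spans given above. Both genes thus have starts further out, which are not shown. In GENCODE M21, Chrna4-201 and Chrna4-204 start at 181039305 and 181039225, inside the Chrna4 window. Part of that window is therefore transcribed sequence of these transcripts.
Chrna4: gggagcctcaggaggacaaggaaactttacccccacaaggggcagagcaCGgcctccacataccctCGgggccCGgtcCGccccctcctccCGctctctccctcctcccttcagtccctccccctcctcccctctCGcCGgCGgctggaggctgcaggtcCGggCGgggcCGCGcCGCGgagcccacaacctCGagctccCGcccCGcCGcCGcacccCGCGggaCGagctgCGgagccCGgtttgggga
Col20a1: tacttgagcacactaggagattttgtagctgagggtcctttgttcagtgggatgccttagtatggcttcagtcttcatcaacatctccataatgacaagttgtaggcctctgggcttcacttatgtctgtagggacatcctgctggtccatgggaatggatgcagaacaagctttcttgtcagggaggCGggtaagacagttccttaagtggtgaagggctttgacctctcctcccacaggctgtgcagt
The Chrna4 promoter held 24 CpG at a GC content of 74.4%, and 12.0% of 32851 promoters held at least as many CpG. The Col20a1 promoter held 1 CpG at a GC content of 49.2%, and 92.1% of promoters held at least as many. Short motifs were searched on both strands, namely the TATA box (TATAAA), the cAMP response element (TGACGTCA) and the shorter core it contains (TGACG), the AP-1 motif (TGANTCA) and the STAT motif (TTCNNNGAA). None was found in either window, and between 1.55% and 17.8% of all promoters of this length held each one.

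The libraries held 9061491 to 12017008 counts on genes, and no library repeated another. Counts on Adgrg6 covered the whole gene and did not resolve the deleted part, at 94.3 to 124 CPM in controls and 106 to 138 CPM in mutants, so they do not check the genotype labels. Marker genes of cartilage summed to 75577 to 136145 CPM per library. Markers of skeletal muscle summed to 2801 CPM in control 1 and to 63.6 to 151 CPM in the other libraries.

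Chrna4 was counted rarely in every control library and more often in every mutant library. Its row held 5, 10 and 11 counts in control replicates 1, 2 and 3 and 41, 60 and 66 counts in mutant replicates 1, 2 and 3. The exact Poisson 95% intervals, which cover counting error only, ran from 1.62 to 19.7 counts over the controls and from 29.4 to 84.0 counts over the mutants. Levels were scaled to CPM, which are counts per 1000000 counts on the 16152 tested genes. Library sizes were adjusted by the trimmed mean of M values (TMM). Chrna4 was at 0.535, 1.11 and 0.860 CPM in controls and at 4.67, 4.90 and 7.01 CPM in mutants. The genotypes did not overlap, and the lowest mutant library was 4.20-fold above the highest control library. Of all 16152 genes tested, 5.45% had every mutant library above every control library, and since Chrna4 was chosen on these values nothing is read from its place among them.

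The mean of Chrna4 was 0.835 ± 0.288 CPM in controls (SD, n = 3) and 5.52 ± 1.29 CPM in mutants (SD, n = 3), a 6.62-fold difference. The fitted log2 fold change of edgeR was 2.71 with a standard error of 0.51. With any 1 library left out it lay between 2.51 and 2.94. Chrna4 entered the fit through its mutant libraries. The filter asked for 1.02 CPM, before TMM scaling, in 3 libraries, and 3 mutant libraries but only 1 control library met it. Per kilobase of exon, Chrna4 lay at 0.166 CPM in controls, above 0.403% of 15374 tested genes with a length, and at 1.10 CPM in mutants, above 20.8% of them. The median gene was at 3.91 CPM per kilobase in both genotypes.

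Reads on genes that should be silent in the disc gave a measure of stray signal. Over 1244 olfactory receptor genes, the counts per kilobase of exon would place 0.0928 to 0.574 counts on the Chrna4 exons, depending on the library. Each control library held more Chrna4 counts than that, and the log2 fold change after subtraction was 2.78.

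Col20a1 was counted well in all libraries and differed little between genotypes. Its row held 212, 184 and 326 counts in control replicates 1, 2 and 3 and 343, 286 and 267 counts in mutant replicates 1, 2 and 3. This gave 22.7, 20.4 and 25.5 CPM in controls and 39.0, 23.3 and 28.4 CPM in mutants. Mutant 1 stood above the other libraries, mutant 2 lay below control 3, and the genotypes overlapped. The mean was 22.9 ± 2.53 CPM in controls and 30.2 ± 8.01 CPM in mutants (SD, n = 3 each), a 1.32-fold difference. The fitted log2 fold change was 0.40 with a standard error of 0.22, and it was 0.21 without mutant 1 and 0.57 without mutant 2. Per kilobase of exon, Col20a1 was at 4.45 CPM in controls and 5.88 CPM in mutants, above 53.3% and 60.8% of genes.

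**Figure D1:**
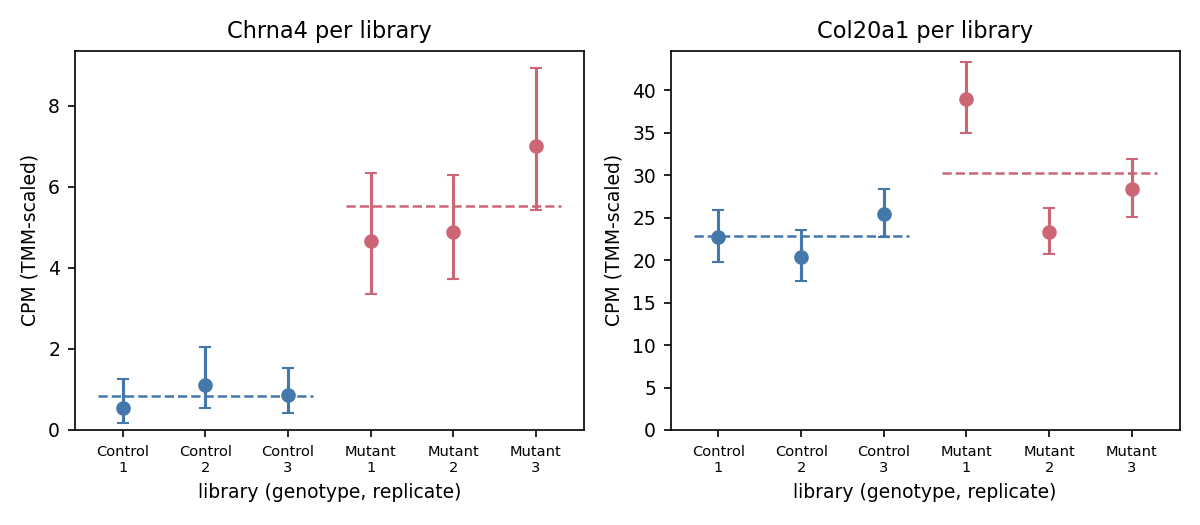
TMM-scaled CPM of Chrna4 (left) and Col20a1 (right) in each library, with exact Poisson 95% intervals of the counts as bars and the mean of each genotype (n = 3) as a dashed line. The mutant libraries of Chrna4, at 4.67 to 7.01 CPM, all lie above its controls, at 0.535 to 1.11 CPM, while those of Col20a1 overlap its controls.

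Whether Chrna4 followed Col20a1 was read from the ratio of the 2 counts within each library, which needs no scaling between libraries. In controls there were 2.36, 5.43 and 3.37 Chrna4 counts per 100 Col20a1 counts, and in mutants 12.0, 20.98 and 24.7. The exact 95% intervals of the control ratios reached up to 10.2, in control 2, and those of the mutant ratios down to 8.43, in mutant 1, so at counting precision these 2 libraries met, while the ratios of the genotypes did not overlap. The mean ratio was 3.72 ± 1.57 in controls and 19.2 ± 6.56 in mutants (SD, n = 3 each), a log2 difference of 2.37. With counts summed within a genotype, 26 Chrna4 counts in controls were 3.60 per 100 Col20a1 counts and 167 in mutants were 18.6 per 100. The log2 difference between the genotype means was 2.73 for Chrna4 and 0.40 for Col20a1 on their own.

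At the ratio of the summed controls, the Col20a1 counts of mutants 1, 2 and 3 would go with 12.4, 10.3 and 9.61 Chrna4 counts. The observed counts exceeded these by 28.6, 49.7 and 56.4, and were 3.32, 5.83 and 6.86 times as many. The 2 genes did not keep the same order among mutants. Mutant 1 had the highest Col20a1 level of all libraries and the lowest Chrna4 level of the mutants, whereas mutant 3 had the highest Chrna4 level at 28.4 CPM of Col20a1. In each of the 3 mutant libraries Chrna4 was thus above what its Col20a1 counts would carry at the control ratio.

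**Figure D2:**
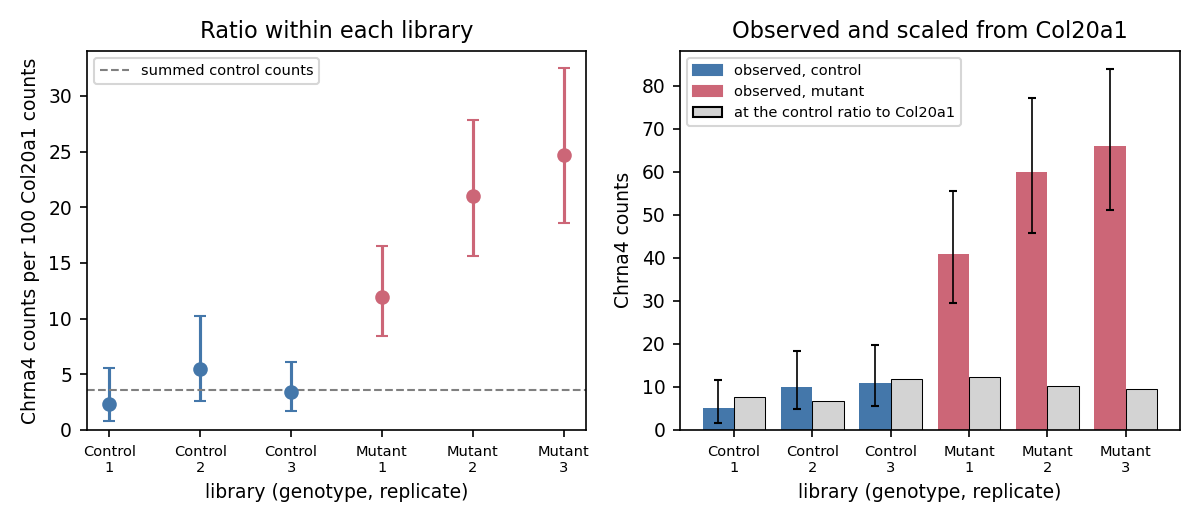
Left, Chrna4 counts per 100 Col20a1 counts in each library with exact 95% intervals, and the ratio of the summed control counts (3.60) as a dashed line. Right, observed Chrna4 counts with exact Poisson 95% intervals beside the counts that the same library's Col20a1 would carry at that ratio, which are 9.61 to 12.4 in mutants against 41 to 66 observed.

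The other nicotinic subunits were mostly too low to be compared. Of the 15 other subunit genes, 4 were tested, and 0 passed an unadjusted p of 0.05 in edgeR's quasi-likelihood test, which 7.21% of all 16152 genes passed, so with 4 genes a count of 0 says little about the family. At an adjusted p of 0.05 in edgeR, 0 of these 4 passed either, and 1 of all tested genes (0.00619%) did. The median log2 fold change of these 4 was -0.85, beside -0.01 over all tested genes. DESeq2 gave 1 call at an unadjusted p of 0.05 among the 15, the beta4 subunit Chrnb4, lower in mutants, beside 6.06% of all genes. Chrnb2, the usual partner of alpha4, had 4, 1 and 0 counts in controls and 3, 3 and 1 counts in mutants. At 0.428 CPM or less in every library, it lay below Chrna4 in each library. In all, 10 of the 15 stayed under 1 CPM in every library.

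Chrnb1, the beta subunit of the muscle receptor, was the most abundant of the 4, at 8.81 ± 1.98 CPM in controls and 6.31 ± 2.42 CPM in mutants (SD, n = 3 each), and its genotypes overlapped. Chrnb4 was at 2.03, 2.78 and 4.46 CPM in controls and at 0, 0.490 and 1.81 CPM in mutants, each mutant below each control as for 5.96% of all genes tested, with a log2 fold change of -2.01 and an unadjusted p of 0.0555 in edgeR. Chrna7, whose alpha7 subunit forms receptors on its own, had a log2 fold change of -1.21 with a standard error of 1.03. Chrna10, known from hair cells, had one of 1.14 with a standard error of 0.79 and passed as higher without control 1. The summed level of the other 15 subunits was 15.9 to 24.8 CPM in controls and 5.69 to 16.7 CPM in mutants, so the genotypes overlapped.

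**Figure D3:**
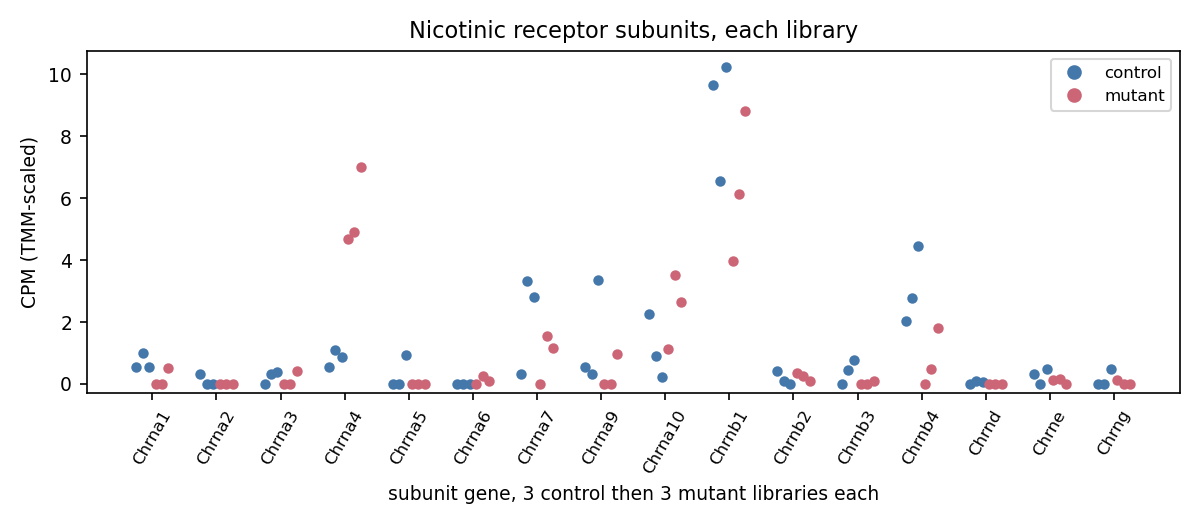
TMM-scaled CPM of the 16 nicotinic receptor subunit genes, with 3 control and 3 mutant libraries as points for each gene. Chrna4 has mutant points at 4.67 to 7.01 CPM, while Chrnb2 stays at 0.428 CPM or below in every library.

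Genes that help nicotinic receptors assemble or that tune them were present. Of 9 listed, 7 were tested and 0 passed an unadjusted p of 0.05 in edgeR, beside 7.21% of all genes, with a median log2 fold change of 0.12. Lynx1, which encodes a membrane-anchored modulator that binds nicotinic receptors, was at 62.0 ± 9.08 CPM in controls and 70.1 ± 13.9 CPM in mutants (SD, n = 3 each). Its relatives Lypd6b and Lypd6 were at 22.6 and 7.33 CPM in controls, and the chaperone gene Ric3 was at 1.65 CPM. Of 7 genes of acetylcholine synthesis, transport and breakdown, 4 were tested and 0 passed, beside the same 7.21%, with a median of -0.48. Ache, which encodes the enzyme that breaks acetylcholine down, was at 1.88 ± 0.228 CPM in controls and 2.22 ± 0.300 CPM in mutants (SD, n = 3 each). The synthetic enzyme gene Chat was at 0.214, 0.999 and 2.89 CPM in controls and at 0.228, 0.245 and 0.106 CPM in mutants, too few counts to be tested.

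The FACIT collagens did not move in 1 direction. Of the 9 genes with a row, Col20a1 aside, 8 were tested, and at an unadjusted p of 0.05 in edgeR 1 was higher and 3 were lower in mutants, beside 2.89% higher and 4.32% lower over all genes. None passed an adjusted p of 0.05. The median log2 fold change of the 8 was -0.31. Col14a1, collagen XIV of tendon and dermis, was at 79.2, 60.4 and 53.5 CPM in controls and at 103, 153 and 175 CPM in mutants. Each mutant lay above each control, with a log2 fold change of 1.16, a standard error of 0.24, an unadjusted p of 0.000602 and an adjusted p of 0.534 by edgeR, and the call stood under every alternative tried. Col9a2 and Col9a3, which encode chains of collagen IX, fell by 0.64 and 0.73 on the log2 scale, and Col9a1, the remaining chain, had -0.30 and did not pass. Col9a2 lost its call without any of control 1, control 2, mutant 2 or mutant 3 and with no filter on low counts, and Col9a3 without control 1, mutant 2 or mutant 3. Col19a1 fell by 1.87 from levels of 2.03, 4.996 and 14.1 CPM in controls to 1.02, 2.61 and 2.12 CPM in mutants. These genotypes overlapped, and the call was lost without control 3 or mutant 1. Collagens XII, XVI and XXII (Col12a1, Col16a1 and Col22a1) had log2 fold changes of -0.32, 0.22 and 0.42 and did not pass, though Col22a1 passed as higher without control 1. In level, Col20a1 at 22.9 CPM in controls lay near Col22a1 at 17.8 CPM and far below the collagen IX genes at 2150 to 4539 CPM. Their lengths were not used in this comparison, so it is between counts and not between transcript numbers.

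Neighbouring genes were compared to see whether the difference spread along the chromosome. Within 500 kb of the pair, GENCODE M21 lists 47 other genes, of which 45 had a row and 23 were tested. At an unadjusted p of 0.05 in edgeR, 1 was higher (Helz2) and 3 were lower (Col9a3, Tcfl5 and Eef1a2), beside 2.89% higher and 4.32% lower over all genes, and none passed an adjusted p of 0.05. Their median log2 fold change was -0.00, beside -0.01 over all genes. Next to Col20a1, Arfgap1, a regulator of Golgi transport 4008 bases away, held 1612 to 2426 counts and had a log2 fold change of -0.01 with a standard error of 0.21. Further on this side, Gm14341 had one of -0.19 and Nkain4 one of -0.58, neither of which passed, and Birc7 held 0, 1 and 0 counts in controls and 0, 5 and 0 in mutants.

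On the Chrna4 side, Eef1a2, an elongation factor of muscle and neurons 104106 bases away, was at 62.4 CPM in control 1 and at 1.55 to 4.67 CPM in the other 5 libraries. Its log2 fold change of -2.77 passed with an unadjusted p of 0.0321 in edgeR and lost the call without control 1, the library in which the skeletal muscle markers were also highest. The call was also lost without mutant 1, 2 or 3, and in DESeq2. Further out, Gm24892 held 4 counts in control 1 and none elsewhere, and Ppdpf had a log2 fold change of -0.31 and did not pass. Helz2, which encodes a helicase that acts as a coactivator of nuclear receptors, lies 184068 bases from the pair and was at 11.3, 11.5 and 7.82 CPM in controls and 16.5, 17.6 and 19.1 CPM in mutants. Its log2 fold change was 0.80 with a standard error of 0.23 and an unadjusted p of 0.00563 in edgeR, and its call stood under every alternative tried. Tcfl5, whose 3′ end overlaps that of Col9a3, fell by 0.47 and lost its call without control 2, control 3, mutant 2 or mutant 3, and in DESeq2.

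**Figure D4:**
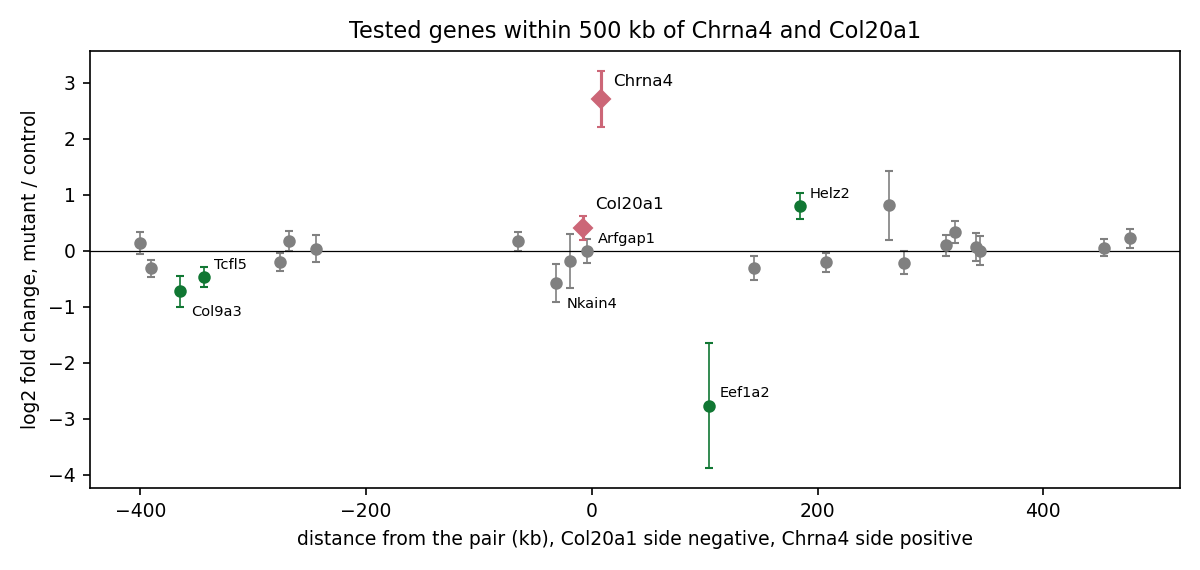
Fitted log2 fold change of mutant over control, with its standard error as a bar, for the 23 tested genes within 500 kb against their distance from the pair in kb. Genes past an unadjusted p of 0.05 are green, and the 2 members are diamonds drawn slightly apart at 0. Chrna4 at 2.71 lies above all plotted neighbours, and Arfgap1, the nearest tested, is at -0.01.

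The counting of these files does not state a strand setting, and the library kit does not mark strand, so reads that run past the end of one gene into its neighbour could be counted there. Other pairs of tested genes with facing 3′ ends at most 1000 bases apart show how far such neighbours go together in these libraries. Over 412 such pairs the log2 fold changes of the partners differed by a median of 0.29 in size, with quartiles of 0.14 and 0.54. For Chrna4 and Col20a1 the difference was 2.31, and since they were chosen for the rise of Chrna4 nothing is read from its size beside the other pairs. Across these pairs the fold changes of the partners had a Pearson r of 0.04, a description over pairs that share the same 6 libraries. With ends at most 200 bases apart, the median was 0.21 over 147 pairs and the r was 0.18. In the summed control counts of 37 of the 412 pairs, and of 10 of the 147, the lower gene had fewer counts per 100 counts of the higher gene than the 3.60 that Chrna4 had per 100 of Col20a1 in the same libraries. How much of the control signal of Chrna4 came from Col20a1 reads was not tested.

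**Figure D5:**
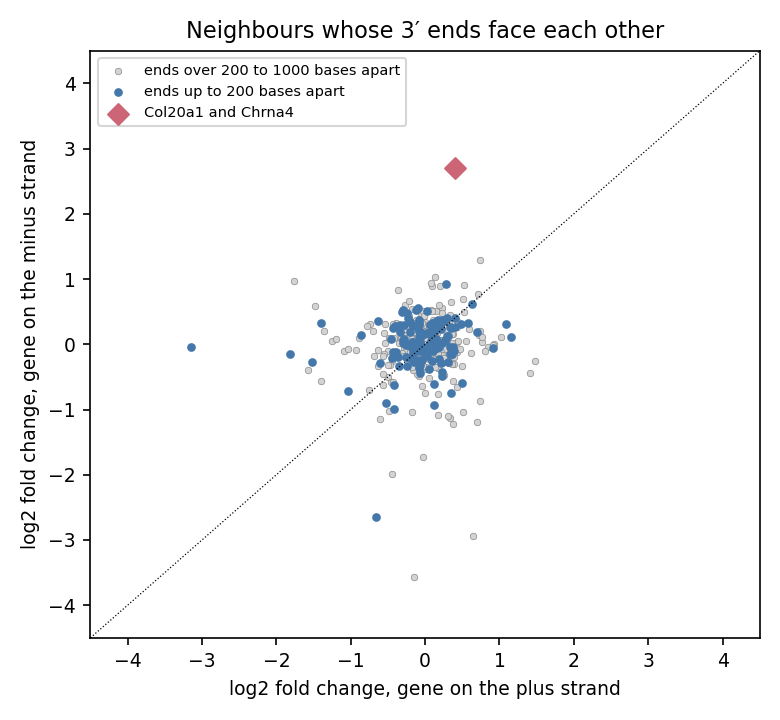
Log2 fold change of mutant over control for pairs of tested genes whose 3′ ends face each other, the gene on the plus strand on the horizontal axis and that on the minus strand on the vertical axis. Points are pairs with ends up to 200 bases apart (blue) or further, to 1000 bases (grey), the dotted line marks equal change, and Chrna4 with Col20a1 (diamond) sits at 2.71 against 0.40.

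The genes most like each member across the 6 libraries were ranked by Pearson r of log2(CPM + 1) over 15988 genes with a mean of at least 1 CPM. Col20a1 was 1915th in likeness to Chrna4. The 5 genes most like Chrna4 were RP23-169H13.6 (r = 0.99), Cetn4 (0.99), which encodes a centrin, Gm15677 (0.99), Arid5a (0.99), which encodes an RNA-binding protein, and Actr1a (0.98), a component of dynactin. RP23-169H13.6, whose symbol was matched to no position, was at 1.82, 2.55 and 2.502 CPM in controls and 5.58, 5.71 and 8.39 CPM in mutants. Like Chrna4 it was highest in mutant 3, and its r was 0.97 after the mean of each genotype was taken out. That r was 0.89 for Cetn4 and 0.50 for Actr1a, whose mean went from 87.8 CPM in controls to 98.6 CPM in mutants.

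The 5 genes most like Col20a1 were 1700109K24Rik, Kctd21, Dimt1, which encodes a methyltransferase of ribosomal RNA, Mgl2, a lectin of macrophages, and Gm12898, with r from 0.979 to 0.999. All 5 were highest in mutant 1. Mgl2, for example, was at 5.58 CPM there and at 1.11 to 2.19 CPM in the other libraries. Of these 10 genes, the 9 with a matched position lie on chromosomes other than 2. With the top of 15988 genes taken over 6 libraries, these values describe likeness in these libraries only.

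Levels of other cell types were read from marker lists, since fewer cells of a type and less RNA per cell cannot be told apart in pooled tissue. Neurons are known to express Chrna4, and neuron markers summed to 16.2, 36.9 and 53.5 CPM in controls and to 41.1, 37.5 and 24.0 CPM in mutants, so the genotypes overlapped. Mutant 3, with the highest Chrna4, had the lowest sum of the mutants. Of 11 neuron markers, 10 were tested, and at an unadjusted p of 0.05 in edgeR the neurofilament genes Nefl and Nefm were higher and Rbfox3 was lower, beside 2.89% and 4.32% of all genes. The call of Nefm stood under every alternative tried, that of Nefl was lost without mutant 1 and that of Rbfox3 without control 3, mutant 1 or mutant 3. Nefm was at 0.107, 2.55 and 0.469 CPM in controls and 9.67, 8.65 and 2.23 CPM in mutants, with a log2 fold change of 2.74, and mutant 3 lay below control 2. Nefl was at 0.321, 1.33 and 0 CPM in controls and 7.97, 3.59 and 0.744 CPM in mutants, and Tubb3 was at 0 in every library. Schwann cell and glial markers summed to 380, 1882 and 784 CPM in controls and to 3731, 2702 and 1071 CPM in mutants. Here too mutant 3 was the lowest mutant, below control 2, and of the 8 tested only Gfap passed, as higher, beside 2.89% of all genes. Gfap had a log2 fold change of 1.93, and its call stood under every alternative tried. By either sum the mutants ranked in the order opposite to that by Chrna4. Mutants 1 and 2 were not resolved in Chrna4, with Poisson 95% intervals of 3.35 to 6.33 and 3.74 to 6.30 CPM. Among controls the glial sums ranked in the same order as Chrna4, at 0.535, 1.11 and 0.860 CPM, and the neuron sums did not. Whether Chrna4 counts came from neurons or glia was not tested.

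Col20a1 had its highest level in mutant 1, where the glial markers were also highest and where the 4 macrophage markers summed to 109 CPM, against 44.9 to 60.2 CPM in the other libraries. Most of that excess was the lysozyme gene Lyz2, at 66.7 CPM in mutant 1 and at 19.5 to 27.5 CPM elsewhere, and without it the sum was 42.1 CPM against 25.5 to 34.5 CPM. The glial gene Sox10 was at 8.35, 11.3 and 7.04 CPM in controls and at 19.8, 6.28 and 19.1 CPM in mutants. Markers of tendon and outer annulus summed to 2889 to 4219 CPM in controls and 3775 to 5331 CPM in mutants, with Tnmd and Thbs4 of 6 higher at an unadjusted p of 0.05 in edgeR, beside 2.89% of all genes, and both calls stood under every alternative tried.

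Some markers of tendon, bone, blood and macrophages had every mutant library above every control library, as Chrna4 had and as 5.45% of all genes tested had. They were Tnmd and Thbs4 of tendon and 1 gene in each of the other lists. The counts of calls that follow stand beside 2.89% higher and 4.32% lower over all genes. Of 5 osteoblast markers 1 passed, Bglap, which encodes osteocalcin, at 6.53, 5.33 and 5.63 CPM in controls and 18.0, 25.5 and 10.9 CPM in mutants (log2 fold change 1.64, unadjusted p 0.000415 in edgeR). Of 4 red blood cell markers 1 passed, Slc4a1, which encodes the band 3 anion exchanger, at 4.49, 1.11 and 1.88 CPM in controls and 15.4, 26.4 and 5.95 CPM in mutants (log2 fold change 2.68, unadjusted p 0.00114 in edgeR). Of the macrophage markers 1 of 4 passed, Cd68, at 5.46, 4.89 and 3.60 CPM in controls and 7.85, 7.67 and 7.76 CPM in mutants (log2 fold change 0.74, unadjusted p 0.0401 in edgeR). The calls of Bglap and Slc4a1 stood under every alternative tried, while Cd68 was called in only 3 of the 11 settings and lost its call without control 2, control 3 or any mutant, with no filter, with the replicate block and in DESeq2. The summed levels of each of these lists overlapped between genotypes, at 755 to 1209 and 865 to 1129 CPM for osteoblasts and at 18.9 to 171 and 118 to 259 CPM for red blood cells in controls and mutants. Of 6 skeletal muscle markers 6 were lower at an unadjusted p of 0.05 in edgeR, with a median log2 fold change of -3.11. Their sum was 2801 CPM in control 1, while controls 2 and 3, at 96.7 and 63.6 CPM, lay below every mutant (130 to 151 CPM). Endothelial markers (0 of 3) and nucleus pulposus markers (0 of 5 tested) had no call, and of 7 chondrocyte markers Matn3 was lower. Matn3 lost its call without control 1, mutant 2 or mutant 3. The part of these cell types in the levels of Chrna4 and Col20a1 was not tested.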

How the data were processed

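Poly(A) RNA of pooled IVDs was sequenced in paired ends from 6 libraries. The authors deposited raw counts per gene symbol for each library, without normalization. The methods name Cutadapt, FastQC and HISAT2 on GRCm38.88, while the submitters' processing notes name STAR 2.5.3a, HTSeq and DESeq2, and the strand setting is not given in the sources used here. A deposited table of the authors' own comparison, with fold changes, p-values and scaled counts, was not used. Of the reads entering the count, 39.4% to 43.3% fell on no gene and 0.846% to 1.05% were ambiguous between genes, and both stayed out of the library sizes.

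Counts were normalized by TMM and fitted with edgeR 4.0.16 in R 4.3.3 (filterByExpr, count minimum 10, 16152 genes, quasi-likelihood test, Benjamini-Hochberg adjustment over all of them). Intervals on counts are exact Poisson, and those on ratios exact binomial, at 95%, with scipy 1.17.1. With no molecular identifiers they cover counting error only. Gene positions and transcript ends are from GENCODE M21, and promoters from RefSeq. Which annotation the counting used is not settled, so its exon lengths and gaps between genes may differ from those used here. Sharing of reads between Chrna4 and Col20a1 depends on it, since they lie 16 bases apart in GENCODE M21 and 4765 in RefSeq. Of the symbols, 90.6% named 1 gene of GENCODE M21.

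The genes named are the pair, the members of gene lists, the 4 nearest counted neighbours on each side and the 5 genes most like each member, with called neighbours and markers beside them. One result that this rule covers is not reported here. The members and lists were chosen with earlier results of these data known. The fitting was tested on simulated data. Alternatives were RLE size factors, no filter on low counts, a replicate block, DESeq2 1.42.0 without a prior, leaving out each library, and, chosen after seeing the data, subtraction of the olfactory receptor background.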

Additional observations from a re-analysis of the deposited data

How the results depend on the processing

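The log2 fold changes of Chrna4 and Col20a1 and of their ratio kept their sign under all alternatives run, and the ratio lay between 2.13 and 2.75 with any library left out. The count of all genes at an unadjusted p of 0.05, 1164 in edgeR, was 2276 with no filter on low counts, where 26418 genes were tested, and ran from 618 without control 3 to 2427 without control 1. At an adjusted p of 0.05, 1 gene passed in edgeR, against 245 with no filter, 52 in DESeq2, 0 with the replicate block and 0 to 31 with a library left out, the highest without control 1. Among the other nicotinic subunits, 0 passed in edgeR, while Chrnb4 alone (1 gene) passed as lower with no filter, with the replicate block and in DESeq2, and 0 to 2 passed with a library left out, namely Chrnb4 and Chrna10 without control 1 and Chrnb4 without mutant 3. Of the FACIT collagens 4 passed, against 2 to 3 with a library left out, with 2 without mutant 2 or mutant 3. The cause of these differences was not tested. Libraries with the same replicate number correlated at 0.16, -0.13 and 0.10 in their deviations from the genotype means, so the numbers were not taken as pairs, and with the replicate block 1002 genes passed an unadjusted p of 0.05, Eef1a2 and Cd68 were no longer called, and Chrna4 had a log2 fold change of 2.73 and Col20a1 one of 0.38. Of the 10 genes named as most like a member, 8 remained with a pseudocount of 0.25. Chrna4 rests on 26 counts over the controls, which limits the precision of its fold. With pools from separate mice and n = 3, the spread covers these libraries only.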
